A study of Mus musculus with 18 samples.

Results

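The 9 genes Nkx2-1, Foxa1, Foxa2, Foxp1, Foxp2, Gata6, Grhl2, Elf3 and Elf5 encode transcription factors of the lung epithelium. They were found by their symbols among the 23420 gene rows of each of 3 expression tables, and all 9 were present in every table. The tables hold RNA-seq of whole mouse embryonic lungs collected 14.5 days after mating (14.5 dpc), with 3 deficient and 3 control samples in each of 3 lines, 18 samples in all. Deficient lungs were Rptor f/f; ShhCre/+, Tfam f/f; ShhCre/+ or Cox10 f/f; ShhCre/+, where f is a floxed allele that Cre recombinase deletes. By the methods of the study, control lungs were littermates that carried Rptor f/+, Tfam f/+ or Cox10 f/+ together with ShhCre/+. A figure legend of the study gives these controls as ShhCre/+ alone, and the sample titles say only control. By either account the controls also expressed Cre. With the genotypes of the methods they had 1 floxed allele. Every comparison is then between loss of both copies and loss of 1 copy in the cells that Cre reached. ShhCre is a fusion of green fluorescent protein and Cre placed in the Shh locus, which is active in the lung epithelium from the start of lung budding, and it disrupts 1 copy of Shh in all groups. Rptor encodes raptor, the defining subunit of mTOR complex 1. Tfam packages and transcribes mitochondrial DNA, and Cox10 makes a haem needed by cytochrome c oxidase.

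Nkx2-1 marks the part of the foregut endoderm that becomes lung and thyroid, and it is needed for the identity of lung epithelium throughout life. The forkhead factors Foxa1 and Foxa2 open chromatin in endoderm and act in part redundantly during airway branching and differentiation, whereas Foxp1 and Foxp2 act largely as repressors, with Foxp2 strongest in the distal tips. Gata6 takes part in endoderm specification and, with Nkx2-1, in the activation of surfactant genes. Grhl2 maintains epithelial junctions and identity, and Elf3 and Elf5 are epithelium-restricted Ets factors, Elf5 being expressed in the distal tips of the branching lung under FGF signalling. Several of these genes are not restricted to the epithelium in embryonic lung, since Gata6, Foxp1 and Foxp2 are also transcribed in mesenchymal, smooth muscle or endothelial cells.

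The bases just upstream of a RefSeq transcription start are shown for Nkx2-1, Foxa1 and Foxa2, because these are the lineage factors the comparisons below turn on. Sequences are from RefSeq (GRCm38.p6, the assembly known as mm10, which is the build of the deposited tables), on the minus strand, written 5′ to 3′, with bases of annotated exons left out. The Foxa1 stretch belongs to an inner start and lies within the GENCODE gene (chr12:57540628-57546916), downstream of its outermost start, whereas the other stretches lie outside their genes. Capitals mark a forkhead match.
Nkx2-1, chr12:56536909-56537158: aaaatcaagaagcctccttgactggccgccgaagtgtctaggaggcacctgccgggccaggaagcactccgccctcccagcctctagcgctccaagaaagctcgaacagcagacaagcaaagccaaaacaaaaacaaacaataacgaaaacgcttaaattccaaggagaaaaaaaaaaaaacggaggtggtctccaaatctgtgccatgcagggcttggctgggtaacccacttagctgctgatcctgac
Foxa1, chr12:57546122-57546361: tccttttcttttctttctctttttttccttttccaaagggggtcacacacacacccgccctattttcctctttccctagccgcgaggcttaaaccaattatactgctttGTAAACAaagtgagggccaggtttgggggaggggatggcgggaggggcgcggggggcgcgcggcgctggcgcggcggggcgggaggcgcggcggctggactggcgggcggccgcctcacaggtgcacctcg
Foxa2, chr2:148046970-148047219: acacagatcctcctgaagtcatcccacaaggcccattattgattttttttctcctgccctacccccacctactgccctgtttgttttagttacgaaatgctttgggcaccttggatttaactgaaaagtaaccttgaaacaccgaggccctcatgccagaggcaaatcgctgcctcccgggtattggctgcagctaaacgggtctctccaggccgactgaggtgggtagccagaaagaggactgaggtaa
Promoter windows were at hand for 6 of the 9 genes, 11 windows in all, and each was searched over the 250 bases before the start on both strands. The forkhead motif was TGTTTAC or its variant TGTTTGC or its variant TATTTAC. The Nkx2-1 motif was CAAGTG or its variant CAAGNAC, the Ets motif was CCGGAAG or its variant AGGAAGT, the Grhl motif was AACCNGTT and the Gata motif was AGATAA. At least 1 motif was found in 5 of the 11 windows, and no window held matches to more than 1 motif. The Foxa1 window held a forkhead match, read on the printed strand as GTAAACA, and so did 1 of the Foxp1 windows, as TGTTTGC, and 9.73% of all 32851 promoter windows held such a match. Neither the Nkx2-1 window nor the Foxa2 window shown above held any of the motifs. A window inside the Foxa2 gene held an Ets match, found in 14.1% of all windows, and another held a Gata match, found in 9.99%. The Elf3 window held an Nkx2-1 match, which 21.3% of all windows had, and no window of these genes held a Grhl match, which 1.79% of all windows had. A match is a run of letters and was not tested as a binding site.

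The deposited values are normalised read counts, that is, reads per gene after division by 1 scaling factor for each library. They summed to between 27727202 and 29611064 per sample, and 17671 to 17910 genes had a value above 0. These sums are of scaled values and do not give the depth before scaling. The lines were scaled separately, so each deficient group was compared with the controls of its own table. The third Cox10-deficient lung stood apart from the other deficient lungs of its line, in epithelial genes and also in mesenchymal and endothelial ones (Tcf21 at 4311 against 2787 and 2678, Pecam1 at 7176 against 4668 and 4285, Cdh5 at 9841 against 6478 and 6019). Fold changes of the 9 genes in the Cox10 line are given without it where that changes a call or a direction or moves them by over 1.5 times. The labelled tissue was checked against its markers. The 14 lung mesenchyme markers summed to at least 196932 and the 7 epithelial reference genes to at least 7800.1 in every sample. The 5 thymus and parathyroid markers summed to at most 3.05, and the 4 thyroid markers to at most 66.3. The transcripts of the targeted genes did not pass the test in their own lines. Rptor had a log2 fold change of -0.07 (SE 0.083, adjusted p = 0.57) in the Rptor line, Tfam of -0.12 (SE 0.079, adjusted p = 0.472) in the Tfam line, and Cox10 of -0.01 (SE 0.070, adjusted p = 0.979) in the Cox10 line. These values count reads over the whole gene in the whole lung, so they do not check the deletion of floxed exons in epithelial cells.

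**Figure D1:**
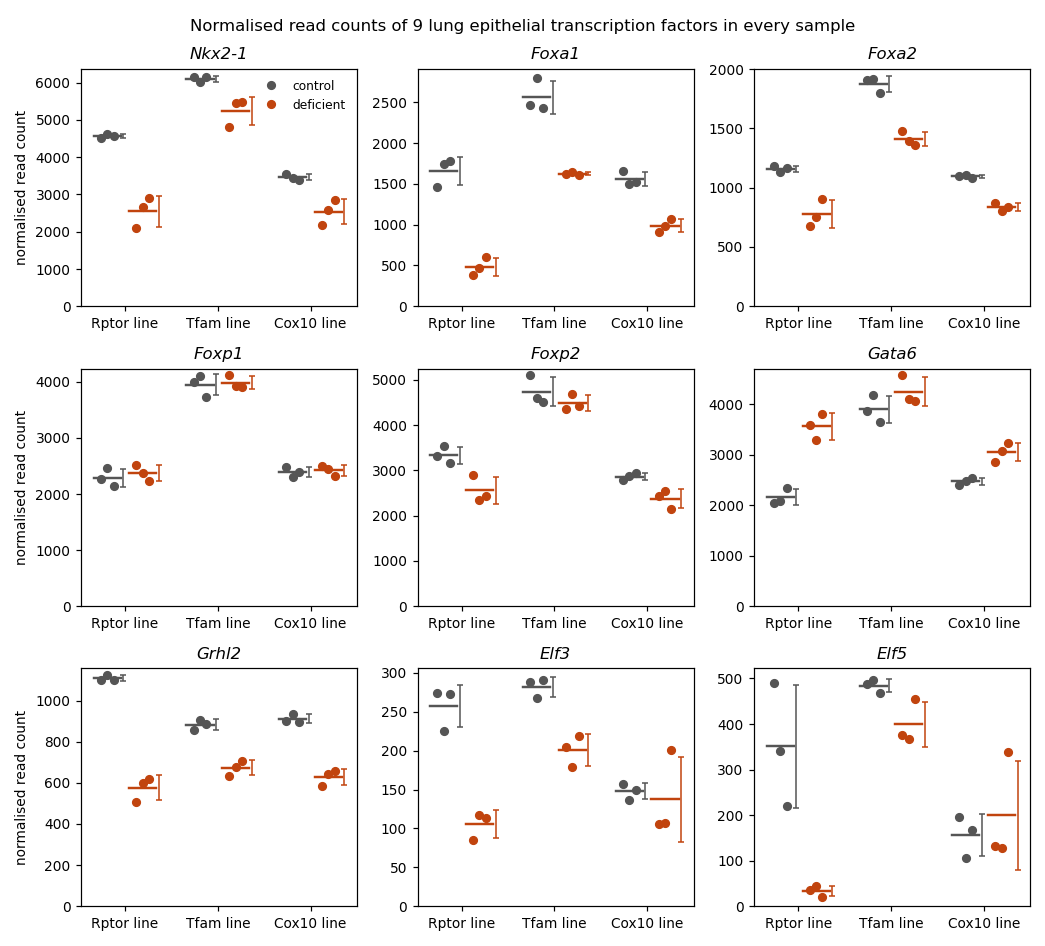
Normalised read counts (linear axes from 0) of the 9 genes in each of the 18 samples. Grey points are control and orange points deficient lungs, horizontal bars are group means and brackets 1 SD (n = 3). The 3 deficient values of Foxa1, Foxa2 and Grhl2 lie below the 3 control values in every line, whereas those of Gata6 lie above them in the Rptor and Cox10 lines.

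Most of these genes were lower in Rptor-deficient lungs, and fewer passed the test with loss of Tfam or Cox10. A gene was called changed at an adjusted p below 0.05 in limma, with adjustment over all genes tested in that line. In the Rptor line 8 of the 9 genes were called, 7 lower (Nkx2-1, Foxa1, Foxa2, Foxp2, Grhl2, Elf3, Elf5) and 1 higher (Gata6). That line had 34.8% of all 14940 tested genes called, 16.6% higher and 18.2% lower. In the Tfam line 4 genes were lower (Foxa1, Foxa2, Grhl2, Elf3), where 4.66% of 15053 tested genes were called, 2.03% higher and 2.63% lower. In the Cox10 line 3 genes were lower (Foxa1, Foxa2, Grhl2), where 0.475% of 14937 tested genes were called, 0.141% higher and 0.335% lower. When every sample was instead scaled to 7 epithelial genes (Epcam, Cdh1 and the others named with the relative levels), the calls over all genes split into 13965 higher and 142 lower with loss of Rptor, 7141 and 222 with loss of Tfam and 6125 and 68 with loss of Cox10, where the deposited scaling gave 2483 and 2719, 306 and 396, and 21 and 50. All 9 genes passed the filter on low values in every line. Their median log2 fold change was -0.85 with loss of Rptor, -0.28 with loss of Tfam and -0.28 with loss of Cox10, where the medians over all tested genes were 0.0083, 0.00098 and 0.0014. The values of the deficient and control samples did not overlap for 8 of the 9 genes with loss of Rptor and for 6 with loss of Tfam or of Cox10, against 50.3%, 22.8% and 21.3% of all tested genes. Foxa1, Foxa2 and Grhl2 were called lower in all 3 lines, as were 43 (0.296%) of the 14550 genes tested in all of them. The labels do not say which litters the samples came from, so the p-values measure only the spread between these samples. In whole lungs, fewer epithelial cells and less RNA of a gene per epithelial cell cannot be told apart.

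**Figure D2:**
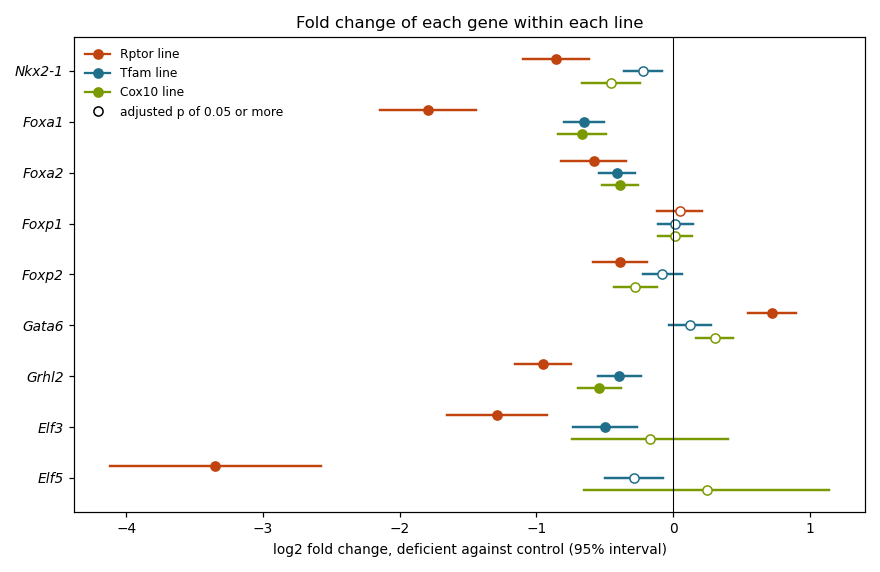
Log2 fold change (deficient against control, on the log2(value + 1) scale) of each gene in each line, with 95% intervals from limma. Filled points have an adjusted p below 0.05 and open points do not. Elf5 in the Rptor line has the largest change, -3.35, and the intervals of Foxp1 span 0 in all 3 lines.

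Nkx2-1 was measured at 4526, 4616 and 4571 normalised read counts in the 3 Rptor controls and at 2092, 2659 and 2900.3 in the 3 Rptor-deficient lungs. Every deficient lung was below every control, and the log2 fold change was -0.85 (SE 0.107, adjusted p = 0.000738), or 55.8% of the control mean. In the Tfam line the controls had 6147, 6018 and 6139.8 and the deficient lungs 4814, 5447 and 5480. In the Cox10 line the controls had 3555, 3446 and 3387 and the deficient lungs 2182, 2585 and 2857. The groups did not overlap in these lines either, but the changes of -0.22 (SE 0.063, adjusted p = 0.0803) and -0.45 (SE 0.091, adjusted p = 0.1) did not pass the test. Without the third Cox10-deficient lung, the highest of its group, the adjusted p in the Cox10 line was 0.0117. Nkx2-1 lies on the minus strand of chromosome 12 (chr12:56531958-56536908).

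Foxa1 fell the most of the forkhead genes. Its values were 1459, 1739 and 1780.5 in Rptor controls and 380, 474 and 598 in Rptor-deficient lungs (log2 fold change -1.79, SE 0.155, adjusted p = 0.000151). Tfam controls had 2467, 2791 and 2426 against 1625, 1643 and 1611 in deficient lungs, a change of -0.65 (SE 0.065, adjusted p = 0.000235). Cox10 controls had 1660.5, 1499.9 and 1524 against 905, 985 and 1072, a change of -0.66 (SE 0.076, adjusted p = 0.0184). No deficient lung reached the lowest control of its line. The call in the Cox10 line was lost without any 1 of its 3 controls or without the second deficient lung, with adjusted p-values up to 0.139 when samples were left out one at a time.

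Foxa2, the closest relative of Foxa1 among these genes, fell less. Rptor controls had 1179.8, 1128 and 1162 and deficient lungs 676, 755 and 907, a log2 fold change of -0.58 (SE 0.104, adjusted p = 0.00376). Tfam controls had 1910, 1914 and 1797 and deficient lungs 1478, 1395 and 1359.7, a change of -0.41 (SE 0.061, adjusted p = 0.0029). Cox10 controls had 1101, 1106 and 1078 and deficient lungs 872, 801 and 840, a change of -0.39 (SE 0.058, adjusted p = 0.039). Groups were again separate in every line. In the Cox10 line the call held in 1 of the 6 fits that left out a sample, the fit without the third deficient lung, and adjusted p-values reached 0.304. The call was also lost when values were scaled to sample totals (adjusted p = 0.0503).

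The balance of Foxa1 to Foxa2 within a sample does not depend on the scaling of the sample. The log2 ratio of Foxa1 to Foxa2 was 0.31, 0.62 and 0.62 in Rptor controls and -0.83, -0.67 and -0.60 in Rptor-deficient lungs, a difference of -1.21. For Tfam it was 0.37, 0.54 and 0.43 in controls and 0.14, 0.24 and 0.24 in deficient lungs. Cox10 controls had 0.59, 0.44 and 0.50 and Cox10-deficient lungs 0.05, 0.30 and 0.35. The ratio was thus lower in each deficient lung than in each control of its line, with differences of -0.24 and -0.28 in the Tfam and Cox10 lines. This ratio was chosen after the values of both genes were seen, so it is given without a test.

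Gata6 went the other way. Rptor controls had 2054, 2078 and 2345 and deficient lungs 3596, 3289.7 and 3812, a log2 fold change of 0.72 (SE 0.076, adjusted p = 0.000359). Cox10 controls had 2403, 2475 and 2548 and deficient lungs 2862, 3083 and 3229.5, a change of 0.30 (SE 0.057, adjusted p = 0.08). These groups did not overlap, but the second change did not pass the test. Without the third Cox10-deficient lung it did (adjusted p = 0.0446). Tfam controls had 3874, 4181 and 3643 and deficient lungs 4581, 4101 and 4073, which overlapped (change 0.13, SE 0.069, adjusted p = 0.394). In the Rptor line 12 of the 14 lung mesenchyme markers had a positive log2 fold change, as Gata6 had. The other 2 had a negative one (Wnt2, -0.18, and Tbx4, -0.04), and neither was called. Of the 14 markers, 10 were called higher and 0 lower, where 16.6% of all tested genes were called higher and 18.2% lower. The 14 summed to between 215757 and 247588 in controls and between 427982 and 456857 in deficient lungs. None of the 14 is at 0. Of 7 smooth muscle markers, 1 was called higher and 5 lower in the Rptor line. Of 8 endothelium markers, 5 were called higher and 0 lower there. The part of any of these cells in the Gata6 value was not tested. Exons of Gata6 on chromosome 18 (chr18:11052064-11085635, plus strand) share 93 bases with 1010001N08Rik on the opposite strand, and whether the counting used strand is not given in the sources used here.

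Foxp1 was the gene of the 9 that was not called in any line. Its values were 2265, 2466 and 2149.5 in Rptor controls and 2515, 2368 and 2228 in Rptor-deficient lungs. The interval of the log2 fold change was -0.11 to 0.21 in the Rptor line, -0.11 to 0.14 in the Tfam line and -0.11 to 0.14 in the Cox10 line. Foxp2 was lower in the Rptor line, at 3312, 3535 and 3151 in controls against 2896, 2349 and 2425 in deficient lungs (log2 fold change -0.39, SE 0.086, adjusted p = 0.00938). Foxp2 in the Cox10 line had 2780.1, 2869.6 and 2934 in controls and 2435, 2536 and 2136 in deficient lungs, which did not overlap but did not pass the test (change -0.28, SE 0.069, adjusted p = 0.178). In the Tfam line the values overlapped and the change was -0.08 (SE 0.064, adjusted p = 0.583). Exons of Foxp1 share 300 bases with Gm20696 and 135 bases with Gm49348 on the same strand. How reads in the shared bases were counted is not given in the sources used here.

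Grhl2, the grainyhead factor of epithelial junctions, fell in all 3 lines. Rptor controls had 1102, 1126 and 1102 and deficient lungs 506, 600.1 and 621, a log2 fold change of -0.95 (SE 0.089, adjusted p = 0.000214). Tfam controls had 855, 906 and 887 and deficient lungs 635, 677 and 708, a change of -0.39 (SE 0.070, adjusted p = 0.00881). Cox10 controls had 901, 937 and 897 and deficient lungs 583, 643 and 659, a change of -0.54 (SE 0.069, adjusted p = 0.0265). The highest deficient lung was below the lowest control in each line. The Cox10 call was lost in 4 of the 6 fits that left out a sample, with adjusted p-values up to 0.208. Exons of Grhl2 share 169 bases with Gm16136 on the opposite strand.

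Elf5 had the largest change of the 9 genes, in the Rptor line. Elf5 was at 491, 341 and 221 in Rptor controls and at 34.7, 44.6 and 20.8 in Rptor-deficient lungs, or 9.5% of the control mean (log2 fold change -3.35, SE 0.337, adjusted p = 0.000291). The controls themselves ranged from 221 to 491, and the lowest of them was still above the highest deficient lung. Tfam lungs had Elf5 at 488, 496 and 469 in controls and 376, 366 and 456 in deficient lungs, without overlap and without passing the test (change -0.28, SE 0.096, adjusted p = 0.144). Cox10 lungs had Elf5 at 196, 106 and 167 in controls and 133, 129 and 338 in deficient lungs. The third deficient lung was the highest of the 6, and without it the change turned from 0.25 (SE 0.388, adjusted p = 0.8) to -0.21 (adjusted p = 0.743).

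Elf3 was at 274, 226 and 273 in Rptor controls and at 85.7, 118 and 114 in Rptor-deficient lungs (log2 fold change -1.28, SE 0.160, adjusted p = 0.000733). Tfam controls had 289, 268 and 291 and deficient lungs 204, 179 and 219, a change of -0.50 (SE 0.107, adjusted p = 0.0237). Cox10 controls had 157, 137 and 149.9 and deficient lungs 106, 107 and 201, a change of -0.17 (SE 0.246, adjusted p = 0.781). The groups were separate in the Rptor and Tfam lines and overlapped in the Cox10 line, again through the third deficient lung. Without it the Cox10 change was -0.47 (adjusted p = 0.132). The Tfam call was lost in 3 of the 6 fits that left out a sample (without the first control, the first deficient or the second deficient lung), with adjusted p-values up to 0.103, and with all 18 samples in one fit (adjusted p = 0.216). Exons of Elf3 share 162 bases with Gm26642 on the opposite strand.

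To ask whether the lines differed in these effects, all 18 samples were fitted together and the fold changes of each pair of lines were subtracted and tested in limma. The Rptor effect differed from the Tfam effect for 5 of the 9 genes (Nkx2-1, Foxa1, Gata6, Grhl2 and Elf5), where 11.2% of 14550 genes did. It differed from the Cox10 effect for 5 genes as well (Foxa1, Gata6, Grhl2, Elf3 and Elf5), where 7.48% of genes did. The largest difference was that of Elf5, -3.59 (SE 0.490, adjusted p = 0.000306) between the Rptor and Cox10 lines. For Foxa1 the Rptor effect was more negative than the Tfam effect by -1.14 (SE 0.169, adjusted p = 0.000504) and than the Cox10 effect by -1.13 (SE 0.169, adjusted p = 0.000593). For Foxa2 the Rptor effect was not called different from the Tfam effect (difference -0.17, 95% interval -0.41 to 0.07) or from the Cox10 effect (-0.19, interval -0.43 to 0.04). Scaled to the epithelial genes, these 2 differences turned to 0.64 (limma, adjusted p = 0.000662) and 0.52 (adjusted p = 0.004). Foxa1 and Foxa2 were not tested against each other. The Tfam and Cox10 effects were not called different for any of the 9 genes in limma, with 0 of 9 also at an unadjusted p below 0.05 and 0.055% of all genes called. The interval of that difference was -0.35 to 0.37 for Foxa1, -0.26 to 0.21 for Foxa2, -0.08 to 0.37 for Grhl2 and -0.06 to 0.53 for Nkx2-1.

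Since whole lungs were used, each gene was also measured against 7 epithelial reference genes in the same sample (Epcam, Cdh1, Esrp1, Esrp2, Ap1m2, Spint1 and Spint2, which encode adhesion, splicing, sorting and protease inhibitor proteins of epithelial cells). The mean of their log2 values, deficient minus control, was -1.07 with loss of Rptor, -0.25 with loss of Tfam and -0.36 with loss of Cox10, or 47.7%, 83.8% and 78.2% of control. Within a line, 3 lungs against 3 cannot give an exact permutation p below 0.1, and each of these differences had that p. Over the 3 lines together, with labels permuted within lines, the smallest p is 0.00025. Foxa1 was lower relative to the epithelial genes, at -0.73 with loss of Rptor, -0.40 with loss of Tfam and -0.31 with loss of Cox10 (mean -0.48, exact permutation p = 0.00025, the smallest possible). Each deficient lung lay below each control of its line. A lower level at an exact p below 0.05 was found for 1.09% of the 14550 genes tested in all 3 lines, and a higher level for 91.1%, because the reference genes themselves fell. The median over these genes was 1.07 with loss of Rptor, 0.255 with loss of Tfam and 0.357 with loss of Cox10 (mean of the lines 0.563). Foxp1 was close to this median, at 1.12, 0.27 and 0.37 (mean 0.59, exact permutation p = 0.00025), so its p restates the fall of the reference. Foxp2 was below it on average, at 0.31 (exact permutation p = 0.0118). Gata6 was above it in each line, at 1.79, 0.38 and 0.66 (mean 0.94, exact permutation p = 0.00025), and the distance of these 3 genes from the median was not tested. With keratins and claudins as the reference, 81.7% of all genes were higher and 1.68% lower, with a median of 0.417, and Foxp2 was at 0.17 (exact permutation p = 0.183).

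The other 5 genes had no called difference in this measure over the 3 lines. Relative to the epithelial genes, Nkx2-1 was at 0.21, 0.034 and -0.10 for Rptor, Tfam and Cox10 in turn (mean 0.05, exact permutation p = 0.249). Foxa2 was at 0.49, -0.15 and -0.03 (mean 0.10, exact permutation p = 0.265), so that with loss of Rptor the 2 Foxa genes moved apart. Relative to the epithelial genes Foxa2 rose and Foxa1 fell there, but the rise of Foxa2 was below the median over all genes (1.07). Grhl2 was at 0.12, -0.14 and -0.18 (mean -0.07, exact permutation p = 0.148). The reference holds 4 genes of the list of known Grhl2 targets described below (Epcam, Cdh1, Esrp1 and Spint1). A change that Grhl2 shares with them would be partly hidden, so this p does not show that Grhl2 was unchanged. The keratins and claudins hold 2 genes of that list (Cldn3 and Cldn4). With keratins and claudins as the reference Grhl2 was lower, at -0.21 (exact permutation p = 0.00025), and Elf3 at -0.24 (exact permutation p = 0.0292). Elf3 was otherwise at -0.22, -0.24 and 0.19 (mean -0.09, exact permutation p = 0.364), and without the third Cox10-deficient lung its mean was -0.16 (exact permutation p = 0.0148). Elf5 was at -2.28, -0.03 and 0.60 (mean -0.57, exact permutation p = 0.15). These p-values are not adjusted over the 9 genes.

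**Figure D3:**
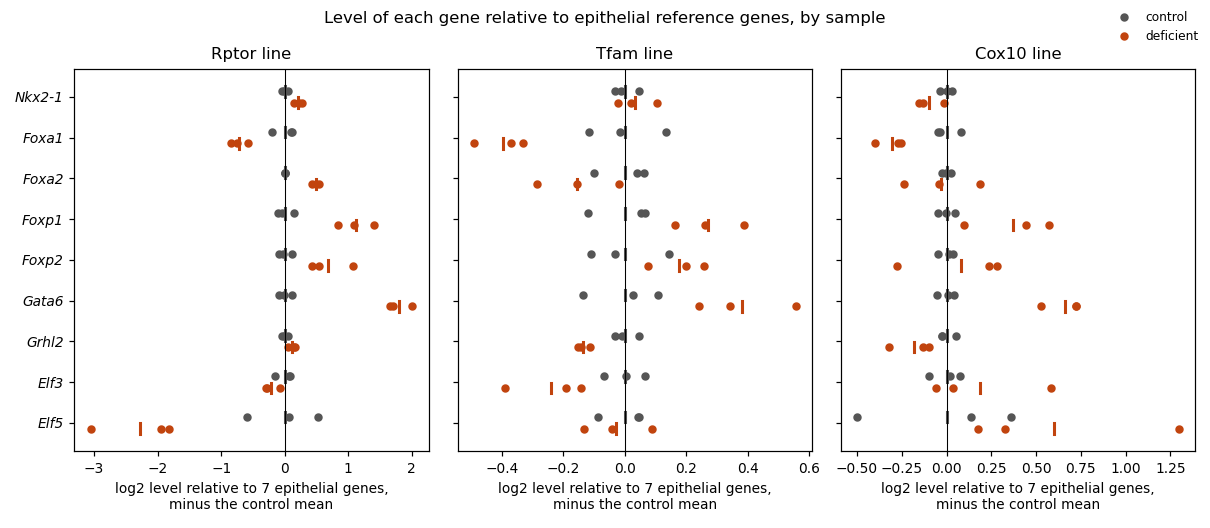
Log2 level of each gene minus the mean log2 level of 7 epithelial reference genes in the same sample, shown as the difference from the control mean of its line (the x axes differ between the panels). Points are samples and short bars group means (n = 3). Deficient lungs lie left of all controls for Foxa1 in each panel, and those of Foxp1 and Gata6 lie right of them, as the reference genes fell (the median over all genes is 1.07, 0.255 and 0.357 in the panels from left to right).

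Per kilobase of exon, Nkx2-1 was the highest of the 9 genes in the controls of every line, at 1608 ± 15.8 normalised read counts per kilobase in Rptor controls, 2147 ± 25.5 in Tfam controls and 1218 ± 30.1 in Cox10 controls (SD, n = 3). Gata6 came next, at 668 ± 50, 1206 ± 83.4 and 765 ± 22.5. Foxa2 at 531 ± 12.1 and Foxa1 at 520.1 ± 54.8 followed in Rptor controls, and these neighbours overlapped. Foxp1 and Foxp2 overlapped in Tfam and Cox10 controls, while in Rptor controls Foxp2 was above Foxp1 in every sample. Elf3 and Elf5 were the lowest in Rptor and Cox10 controls, and Elf3 and Grhl2 in Tfam controls. In the deficient lungs Gata6 was at 1103 ± 81.2 and Nkx2-1 at 897 ± 146 per kilobase in the Rptor line, and at 946 ± 57.2 and 894 ± 120 in the Cox10 line, so that Gata6 had the higher mean in both, with overlapping samples. In Tfam-deficient lungs Nkx2-1 stayed the highest. In Rptor controls 3 of the other genes had a higher mean than Foxa1, and in Rptor-deficient lungs 5 had, with Foxa1 at 152 ± 34.2 per kilobase.

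With the mean of each group taken away, the gene whose remaining variation over the 18 samples was most like that of Nkx2-1 was Grhl2 (Pearson r = 0.92), the first of 12946 genes. Ndnf (0.917), Cldn6 (0.911), Ap1m2 (0.905) and Gprc5a (0.904) came next. The samples share libraries and epithelial content, and these values are a description. Nkx2-1 was in turn the gene of the 9 most like Foxa1 (r = 0.759), Grhl2 (0.92) and Elf3 (0.65). Foxa1 was the most like Foxa2 (0.682) and Gata6 (0.472). Foxp1 and Foxp2 were most like each other (0.579), and Elf3 was the most like Elf5 (0.601). Apart from the pair of Nkx2-1 and Grhl2, genes outside the 9 came before the listed partner among the 12946 genes. Nkx2-1 ranked 110 for Foxa1 and 979 for Elf3, and Foxa1 ranked 148 for Foxa2 and 912 for Gata6. Foxp2 ranked 693 for Foxp1, Foxp1 ranked 1261 for Foxp2, and Elf3 ranked 335 for Elf5.

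Of 15 relatives of the 9 genes in the same families, 14 were tested in the Rptor line, and 3 were higher and 2 lower (median log2 fold change 0.03). These counts are near the shares of all genes tested in that line, of which 16.6% were called higher and 18.2% lower. Ehf, an Ets factor close to Elf3 and Elf5, was lower in the Rptor line (-2.52, SE 0.347, adjusted p = 0.00114) and in the Tfam line (-0.94, SE 0.199, adjusted p = 0.0221), and was the relative called in the Tfam line. Grhl1 fell by 1.93 on the log2 scale (adjusted p = 0.00858) in the Rptor line, whereas Foxa3 (0.96, adjusted p = 0.0429), Gata5 (0.29, adjusted p = 0.0303) and Elf4 (0.26, adjusted p = 0.0127) rose there. No relative of 13 tested was called in the Cox10 line.

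Among 20 other transcription factors of the lung epithelium, 3 were higher and 10 lower in the Rptor line, 2 higher and 5 lower in the Tfam line, and 0 higher and 1 lower in the Cox10 line. The medians were -0.47, -0.19 and -0.20. Irx3 was the gene of this list lower in all 3 lines (-1.28, -0.55 and -0.81), and Sox2, the factor of the conducting airways, was at -3.09, -0.51 and -0.60, called in the first 2 lines. Etv5, a target of FGF signalling in distal tips, was lower in the Rptor (-1.07) and Tfam (-0.55) lines, whereas its relative Etv4 was higher in both (0.35 and 0.71). Id2 was also higher in both (0.35 and 0.56).

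Of 15 known targets of Nkx2-1, Foxa or Gata6, 13 were tested in the Rptor line and 7 were lower, with a median of -0.78. Scgb3a2, a secretory airway gene, had a log2 fold change of -4.71 (SE 0.604, adjusted p = 0.000816), Muc1 of -3.30 (adjusted p = 0.000141), Lamp3 of -2.50 (adjusted p = 0.00199) and the surfactant gene Sftpc of -1.86 (adjusted p = 0.00931). With loss of Tfam the list was split, with 4 genes higher and 3 lower of 13. Slc34a2 (2.66), Napsa (1.05), Lamp3 (0.52) and Abca3 (0.48), genes of alveolar type 2 cells, were higher there, while Muc1 (-1.29), Scgb3a2 (-0.95) and Cldn18 (-0.43) were lower. Other type 2 genes of the list did not pass there, with Sftpc at -0.63 (adjusted p = 0.0562, groups without overlap), Sftpb at 0.17 (adjusted p = 0.351) and Sftpa1 at 0.089 (adjusted p = 0.743). None of 12 was called in the Cox10 line. Sftpc was at 1422, 1241 and 1419 in Cox10 controls and at 386, 562 and 4084 in deficient lungs, so that the third deficient lung, which also had the highest Elf3 and Elf5 of its line, was above every control and the other deficient lungs below. All 11 known targets of Grhl2 were lower in the Rptor line (median -0.997). In the Tfam line 5 of them were lower (median -0.30), and 2 were lower in the Cox10 line (median -0.30). Prom2 was lower in all 3 lines (-2.09, -1.43 and -1.54), as was Cldn4 (-0.86, -0.36 and -0.73). The list shares 4 genes with the epithelial reference and 2 with the keratins and claudins.

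**Figure D4:**
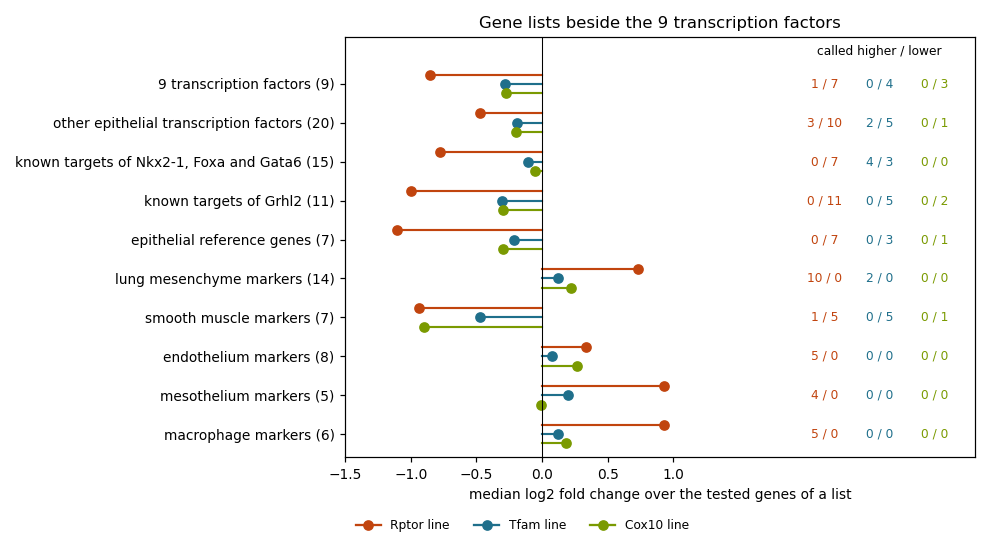
Median log2 fold change (deficient against control) over the tested genes of each list, by line, with the size of the list in brackets and, at the right, the number of its genes called higher and lower. The epithelial lists lie left of 0 in each line, and the mesenchyme, endothelium and macrophage lists lie right of 0.

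Markers of other cells also changed in the Rptor line. All 7 epithelial reference genes were lower there, 3 in the Tfam line and 1 (Esrp2) in the Cox10 line, and their sums were 0.490, 0.836 and 0.799 of control. Higher in the Rptor line were 10 of 14 lung mesenchyme, 5 of 8 endothelium, 4 of 5 mesothelium and all 5 measured macrophage markers, and 0 markers of these lists were lower. Of the same lists, 2 mesenchyme markers were higher in the Tfam line (Fgf10, 0.93, and Lum, 0.64) and 0 in the Cox10 line. Smooth muscle markers were lower for 5 of 7 genes in the Rptor and Tfam lines and 1 of 7 (Myocd, -1.31) in the Cox10 line, while 1 of them, Acta2, was higher in the Rptor line (0.47). No erythroid, neural, thyroid or squamous marker was called in any line. The third Tfam-deficient lung nevertheless had Krt5 at 165, Krt13 at 64.5 and Krt4 at 119. The other Tfam lungs had at most 16.9, 2.03 and 17.2, and Krt14 was within their range. The 4 squamous markers summed to 381 in that lung and to at most 75.8 in Tfam controls. What this adds to the Tfam values of the 9 genes was not tested. Afp, of the liver and stomach list, was higher in the Rptor line (1.44, adjusted p = 0.0323). How far cell composition enters the fold changes of the 9 genes was not tested beyond the comparison with epithelial genes given above.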

How the data were processed

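RNA-seq of 18 whole embryonic lungs (6 groups of 3) was analysed. The title of each sample gave its group and its replicate number. The labels name a column kit for RNA and an Illumina library protocol, whereas the methods of the study name TRIzol with the same kit and a BGI sequencer. The submitters' processing notes list Trim Galore, HISAT2, featureCounts, DESeq2 and the mm10 build, without their roles. The gene annotation, strand setting and filters are not given in the sources used here. The authors deposited, per line, a normalised signal for each sample (the read count of a gene divided by a size factor) together with log2 fold changes, p-values and adjusted p-values, none of which were used. Within every sample, 100% of values fell on whole multiples of 1 step close to 1 (tolerance 0.01 of a step).

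From the deposited signal, log2(value + 1) was analysed with limma 3.58.1 in R 4.3.3 (lmFit, eBayes with trend), line by line. Fold changes on this scale understate those of low genes. Genes were tested where 3 or more of the 6 samples had a value of 10 or more, and p-values (two-sided) were adjusted by Benjamini-Hochberg over all genes tested. Differences between lines were contrasts in a model of 18 samples. Levels relative to epithelial genes were compared by exact permutation. Exon lengths and positions are from GENCODE on GRCm38. Replicates of a group differed by a chi-square per gene of 4.1 to 31.6, where sampling noise gives about 1. It was taken on values divided by the step of their sample and rounded. The fit was tested on simulated data. Replicate numbers are nowhere stated to mark litters. In the Rptor line, samples of the same number deviated together (r = 0.221, 0.33 and 0.259), so the numbers were taken to pair them, from the data and not the design. All 9 genes are described, other genes by fixed lists with at most 6 called genes named per list. The 9 genes and all lists were chosen with earlier results of these data known. The alternatives were scaling to sample totals, trimmed mean of M-values (TMM, 30% and 5% trimmed), pseudocounts of 0.1 and 5, no filter, a mean of at least 50, a replicate block, all 18 samples in one fit, scaling to the epithelial genes, other epithelial references, leaving out each sample and, added after seeing the data, voom weights.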

Additional observations from a re-analysis of the deposited data

Results flagged for a closer look

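The fold changes of 10 gene and line pairs differed between the Rptor line and another line by the test of the difference itself (limma contrast of all 18 samples, adjusted over 14550 genes). On the log2 scale, the Rptor effect minus the Tfam effect was -0.63 for Nkx2-1 (adjusted p = 0.00868), -1.14 for Foxa1 (0.000504), -0.56 for Grhl2 (0.00308) and -3.06 for Elf5 (0.000886), and 0.60 for Gata6 (0.00143). The Rptor effect minus the Cox10 effect was -1.13 for Foxa1 (adjusted p = 0.000593), -0.41 for Grhl2 (0.0231), -1.12 for Elf3 (0.0177) and -3.59 for Elf5 (0.000306), and 0.42 for Gata6 (0.0171). Scaled to the epithelial genes of each sample, the difference of Grhl2 turned to 0.25 against the Tfam line and 0.30 against the Cox10 line, and that of Nkx2-1 to 0.18 against the Tfam line. Foxa1, Gata6 and Elf5, and Elf3 against the Cox10 line (-0.40, adjusted p = 0.0894), kept their direction there. Groups of 3 samples were too small for a test of single outlying samples.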

How the results depend on the processing

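The count of called genes was 6 to 8 in the Rptor line and 3 to 4 in the Tfam line over all alternatives, and 8 to 14 for differences between lines. The genes behind it changed with scaling to the epithelial genes, which gave 2 lower (Foxa1, Elf5) and 4 higher (Foxa2, Foxp1, Foxp2, Gata6) for Rptor and 1 lower (Foxa1) and 2 higher (Foxp1, Gata6) for Tfam, and for Cox10 the same 3 genes as for Tfam. Elf3 in the Tfam line was also lost with all 18 samples in one fit (adjusted p = 0.216). In the Cox10 line the count was 3, but 2 to 5 over the other settings and 0 to 5 when a sample was left out. It was 5 with all 18 samples in one fit (Nkx2-1 and Gata6 were added). It was 2, without Foxa2, with scaling to sample totals (adjusted p = 0.0503), voom weights (0.0529) or the replicate block (0.0657). It was 0 without any 1 of the Cox10 controls or without the second deficient lung, and 5 without the third deficient lung. Scaling to sample totals or TMM moved the median of all genes by at most 0.0132.

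Scaling to the epithelial reference genes, which moves all genes of a line up by 1.07 (Rptor), 0.254 (Tfam) and 0.356 (Cox10), turned several directions. In the Rptor line Nkx2-1 became 0.21, Foxa2 0.49, Foxp2 0.68 and Grhl2 0.12. In the Tfam line Nkx2-1 became 0.034 and Foxp2 0.18, and in the Cox10 line Foxp2 became 0.080 and Elf3 0.19. The Rptor minus Tfam difference became 0.18 for Nkx2-1, 0.64 for Foxa2, 0.50 for Foxp2, 0.25 for Grhl2 and 0.024 for Elf3. The Rptor minus Cox10 difference became 0.31 for Nkx2-1, 0.52 for Foxa2, 0.60 for Foxp2 and 0.30 for Grhl2, and the Tfam minus Cox10 difference -0.091 for Foxa1 and -0.10 for Foxp1. With Epcam and Cdh1 as the reference, the mean relative level became 0.038 for Grhl2 and 0.015 for Elf3. With keratins and claudins it became -0.096 for Nkx2-1 and -0.044 for Foxa2. The number of the 9 genes with an exact p below 0.05 in this measure was 4 to 5 over its alternatives, where 91.1% of all genes were higher and 1.09% lower.

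Leaving out a sample turned only values that were not called. Foxp1 lay between -0.023 and 0.045 with loss of Tfam and between -0.014 and 0.046 with loss of Cox10, and Elf5 ranged from -0.21 to 0.48 in the Cox10 line. For differences between lines, Foxp1 ranged from -0.013 to 0.086 (Rptor minus Tfam), -0.012 to 0.087 (Rptor minus Cox10) and -0.038 to 0.030 (Tfam minus Cox10), Foxa1 from -0.051 to 0.074 and Foxa2 from -0.057 to 0.0065 (Tfam minus Cox10).

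With the replicate block the counts were 8 (Rptor), 4 (Tfam), 2 (Cox10) and 10 for differences between lines. It changed no call in the Rptor line, where the numbers were taken as pairs from these data alone. The main fits, within and between lines, used no block. In the other lines the numbers were not taken as pairs (r = -0.312, -0.207 and 0.151 for Tfam and 0.447, 0.202 and 0.0488 for Cox10). Foxa2 was not called in the Cox10 line with the block (adjusted p = 0.0657). Count tests were planned for tables of counts and were not run, as the deposited values are normalised. All values fell on whole multiples of a step, and divided by it they summed to between 27675601 and 29704748 per sample. Values divided by their step were used only for the chi-square between replicates. With 3 samples per group and 0.475% of genes called in the Cox10 line, a missing call there does not show that a gene did not change.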
